A study of Mus musculus with 12 samples.

Results

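The genes considered here are 10 imprinted genes of the mouse, the delta-like ligand Dlk1, the noncoding RNAs Meg3, Rian, Mirg and H19, and the protein-coding genes Igf2, Nnat, Peg3, Cdkn1c and Grb10, measured across the cell classes of superior mesenteric ganglia. They were taken by gene symbol from a table of 32289 features, and all 10 were found there. Droplet-based single-cell RNA sequencing had been done on 12 ganglia, with 1 library per mouse, from 129+Ter/SvJcl mice: 1 wild-type (WT) mouse of 3 weeks, 10 hemizygous Th-MYCN+/- mice of 3 weeks (named #1 to #10) and 1 Th-MYCN+/- mouse of 6 weeks. In the Th-MYCN mice human MYCN is driven by the rat tyrosine hydroxylase promoter, which is active in sympathetic neurons and their precursors, and the WT mouse carries no transgene. The WT and the 6-week groups held a single mouse each, and the 6-week mouse was one with a macroscopic tumor, so that comparisons with them have no replicate check.

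An imprinted gene is expressed mainly from the chromosome inherited from one parent, because a methylation mark set in the egg or sperm silences or frees the other copy. The Dlk1-Dio3 domain carries such genes side by side: Dlk1, a membrane protein related to Notch ligands, is expressed from the paternal copy, and the noncoding RNAs Meg3, Rian and Mirg, hosts of small nucleolar RNAs and microRNAs, from the maternal copy. H19 (maternal) and the growth factor gene Igf2 (paternal) form the best-known pair of this kind, and Dlk1 is widely used as a marker of immature sympathoadrenal and neuroendocrine cells. The counts do not separate the parental copies, so every level below is the sum of both.

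On the GRCm38 build, Dlk1 lies on chromosome 12 at 109452823 to 109463336 on the plus strand, 77664 bases before Meg3 (109541001 to 109571726), which is followed by Rian (109603940 to 109661716) and Mirg (109729764 to 109749460) on the same strand. H19 (142575529 to 142578143) and Igf2 (142650766 to 142666816) lie 72622 bases apart on chromosome 7, minus strand, with Cdkn1c (143458339 to 143461050) further along and Peg3 (6703892 to 6730431) near the other end of that chromosome. Nnat is on chromosome 2 (157560078 to 157562522), within Blcap on the opposite strand, and Grb10 on chromosome 11 (11930508 to 12038683). Within the annotated bounds of Mirg lie 14 microRNA hairpins of RefSeq, within those of Rian 3, and within those of Meg3, H19 and Igf2 1 each. Meg3, Igf2 and Cdkn1c also overlap an annotated gene on the opposite strand in exons, and whether strand entered the counting is not known here. Igf2 shares 16048 of its 16051 bases, exons included, with Gm49394, a protein-coding gene on the same strand. How reads shared by these 2 genes were counted is not known here.

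The start regions of Dlk1 and Meg3 are shown because these neighbours parted in the comparisons below, and that of Nnat because it was the next most abundant member in neuroblasts. Each is the RefSeq window of 250 bases before to 50 bases after the annotated start (GRCm38.p6, 5′ to 3′ on the plus strand), with CpG dinucleotides, the sites where imprints are methylated, in capitals. They lie at chr12:109452573-109452872, chr12:109540746-109541045 and chr2:157559828-157560127.
Dlk1: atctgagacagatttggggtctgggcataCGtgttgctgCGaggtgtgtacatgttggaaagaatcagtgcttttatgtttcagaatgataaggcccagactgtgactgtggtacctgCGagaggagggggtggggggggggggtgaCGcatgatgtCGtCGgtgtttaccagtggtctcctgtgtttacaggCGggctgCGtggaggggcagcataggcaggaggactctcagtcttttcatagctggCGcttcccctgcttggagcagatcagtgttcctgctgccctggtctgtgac
Meg3: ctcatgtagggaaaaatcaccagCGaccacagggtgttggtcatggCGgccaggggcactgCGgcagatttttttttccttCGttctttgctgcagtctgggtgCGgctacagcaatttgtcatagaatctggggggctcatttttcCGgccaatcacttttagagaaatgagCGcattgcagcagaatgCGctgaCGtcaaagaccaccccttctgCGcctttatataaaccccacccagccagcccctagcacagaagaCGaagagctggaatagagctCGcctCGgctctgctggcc
Nnat: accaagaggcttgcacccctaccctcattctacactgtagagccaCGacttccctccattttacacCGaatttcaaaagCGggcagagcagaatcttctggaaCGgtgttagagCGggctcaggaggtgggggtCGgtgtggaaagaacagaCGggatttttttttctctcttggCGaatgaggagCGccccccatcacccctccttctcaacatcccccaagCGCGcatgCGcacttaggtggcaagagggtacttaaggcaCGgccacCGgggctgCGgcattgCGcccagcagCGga
The Dlk1 window held 9 CpG dinucleotides, the Meg3 window 13 and the Nnat window 17, against a median of 7 over 32851 such windows of the genome. The letters CACGTG, the E-box to which MYC-family proteins bind and which reads the same on both strands, were in none of the 13 windows of the 8 members that have any, and in 7.15% of all windows.

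The libraries held 1147772 to 6388766 unique molecular identifiers (UMIs, counted molecules), and 11958 barcodes passed as cells, 522 to 1775 per mouse with a median of 555.5 to 2367 UMIs. Of their barcodes, 92 occurred in 2 or more libraries, where 87.1 would be shared by equal use of the barcode list. Clusters were named from marker lists as neuroblast-like (3125 cells), ganglion-like (2676), Schwann-like (2897), endothelial-like (524), fibroblast-like (141), myofibroblast-like (168) and macrophage-like (242), and are called neuroblasts, ganglion cells and so on below. A further 2142 cells of low depth (median 491 UMIs) stayed unnamed, with Meg3 at 5794 ± 1297 UMIs per 1000000 (CPM, mean ± SD, n = 10) over the 10 Th-MYCN+/- mice of 3 weeks. The imprinted genes were kept out of the clustering. Human MYCN was read at 325 ± 161 CPM in the neuroblasts of the 3-week Th-MYCN+/- mice and at 0 UMIs in the WT library, as the labels have it. Ganglion cells lay in clusters 3, 5, 9 and 16, and mouse #2 gave 86.8% of cluster 3. That mouse stood apart, with 1470 ganglion cells but 43 neuroblasts and 7 Schwann cells, and the neuroblast level of Dlk1, the stromal levels of Cdkn1c and Grb10 and the relations across mice are also given without it.

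Dlk1 was high in neuroblasts and low in ganglion cells. In neuroblasts of the 10 Th-MYCN+/- mice of 3 weeks it ranged from 966 CPM in mouse #2 over a median of 1753 CPM to 3201 CPM in mouse #8 (mean 1783 ± 601 CPM; 1874 ± 560 CPM without mouse #2). In ganglion cells of the same mice the range was 3.82 to 109 CPM, with a median of 10.3 CPM, so that the classes did not overlap in any pair of mice. The difference was 6.24 on the log2 scale (SE 0.40), a 75.5-fold higher estimate in neuroblasts, higher in 10 of 10 mice (edgeR quasi-likelihood test with mouse as block, adjusted p = 3.56e-11). Against Schwann cells, which ranged from 0 to 357 CPM, the difference was 4.86 (SE 0.41, higher in 10 of 10 mice, adjusted p = 9.95e-10). After each cell had been thinned to 500 UMIs, 53.5% of 2721 neuroblasts held a Dlk1 UMI (88.9% of the same cells before thinning), against 1.92% of 2029 ganglion cells, 0.877% of 1824 Schwann cells, 0.667% of 300 endothelial cells and 0 of 174 macrophages, which should lack it. Median depths were 4389 UMIs in neuroblasts, 1168 in ganglion cells, 947 in Schwann cells and 1072.5 in endothelial cells.

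Free RNA carried Dlk1 too. Barcodes with at most 100 UMIs, taken as free RNA, held Dlk1 at 742 ± 559 CPM over the 10 mice. The mean of ganglion cells was 3.68% of that level, of endothelial cells 7.55%, of Schwann cells 9.76% and of fibroblasts 33.2%. Human MYCN, read from the transgene, stood at 18.2% of its free level in Schwann cells (6.11% without mouse #6) and at 1.02% in ganglion cells. For Dlk1 in Schwann cells mouse #6 was highest with 357 CPM (42 UMIs in 112 cells) and free RNA of 723 CPM. The same 112 cells held human MYCN at 144 CPM (17 UMIs, against 0 to 19.3 CPM in the other 9 mice) and Nnat at 348 CPM (41 UMIs). Without that mouse the Schwann mean of Dlk1 was 40.9 ± 35.9 CPM instead of 72.5 ± 105 CPM, or 5.49% of free RNA. In contrast, mouse #8, with the most free Dlk1 (2114 CPM), had 38.4 CPM in Schwann cells. The part of free RNA and of neuroblast RNA in the low values of these classes was not tested.

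In the WT library Dlk1 was nearly absent. Its cells held 2 Dlk1 UMIs among 701794 UMIs of all genes (2.85 CPM), where the cells of the 3-week Th-MYCN+/- mice held from 100.96 CPM in mouse #2 to 2696 CPM in mouse #8. Both WT molecules were in fibroblasts (97.0 CPM, 95% Poisson interval 11.7 to 350). The WT ganglion cells had 0 UMIs, which allows up to 10.9 CPM, the WT Schwann cells 0 UMIs (up to 12.96 CPM) and the 30 WT cells in neuroblast clusters 0 UMIs (up to 264 CPM). These limits cover counting error only. Those 30 cells held 11367 of the 701794 UMIs, and values over all cells also follow the share of neuroblasts in a library. Their limit lies below the lowest neuroblast value of the Th-MYCN+/- mice. However, the 28 of them in cluster 1 held Meg3 at 564 CPM (6 UMIs) and 0 Nnat UMIs. Cluster 1 of the 3-week Th-MYCN+/- mice had 4570 ± 955 CPM of Meg3 and 1141 ± 247 CPM of Nnat. Whether the WT cells are of the same kind was not tested. The WT ganglion limit lies within the range of the 3-week ganglion cells, so a difference there was not detectable at this depth.

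Among the named classes fibroblasts were second for Dlk1. The unnamed cells of low depth were not ranked, but many held it. Thinned to 500 UMIs, 47.0% of 991 unnamed cells of the 3-week Th-MYCN+/- mice held a Dlk1 UMI. The share was 53.5% in neuroblasts and 7.94% in 63 fibroblasts. Over the 9 mice with at least 5 of them the level was 258 ± 164 CPM (22 UMIs in all), with 8 of 9 mice above 0 and mouse #2 at 0. It was lower than in neuroblasts in 9 of 9 mice (log2(CPM + 10) difference 3.23 ± 1.55 SD; exact sign-flip permutation test, two-sided, adjusted p = 0.026 over 60 neighbouring pairs of classes) and higher than in Schwann cells in 8 of 9 mice (1.83 ± 1.43, adjusted p = 0.0391, same test). Dlk1 was too low for the count test between fibroblasts and Schwann cells, and with low genes kept in that fit the difference was 0.92 (SE 0.49, edgeR adjusted p = 0.227), which did not pass. The fibroblasts of these mice held 0 human MYCN UMIs and those of the 6-week mouse had 323.7 CPM of Dlk1 (8 UMIs, interval 140 to 638). The neighbours below, Schwann, endothelial and myofibroblast cells, did not differ beyond their spread.

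**Figure D1:**
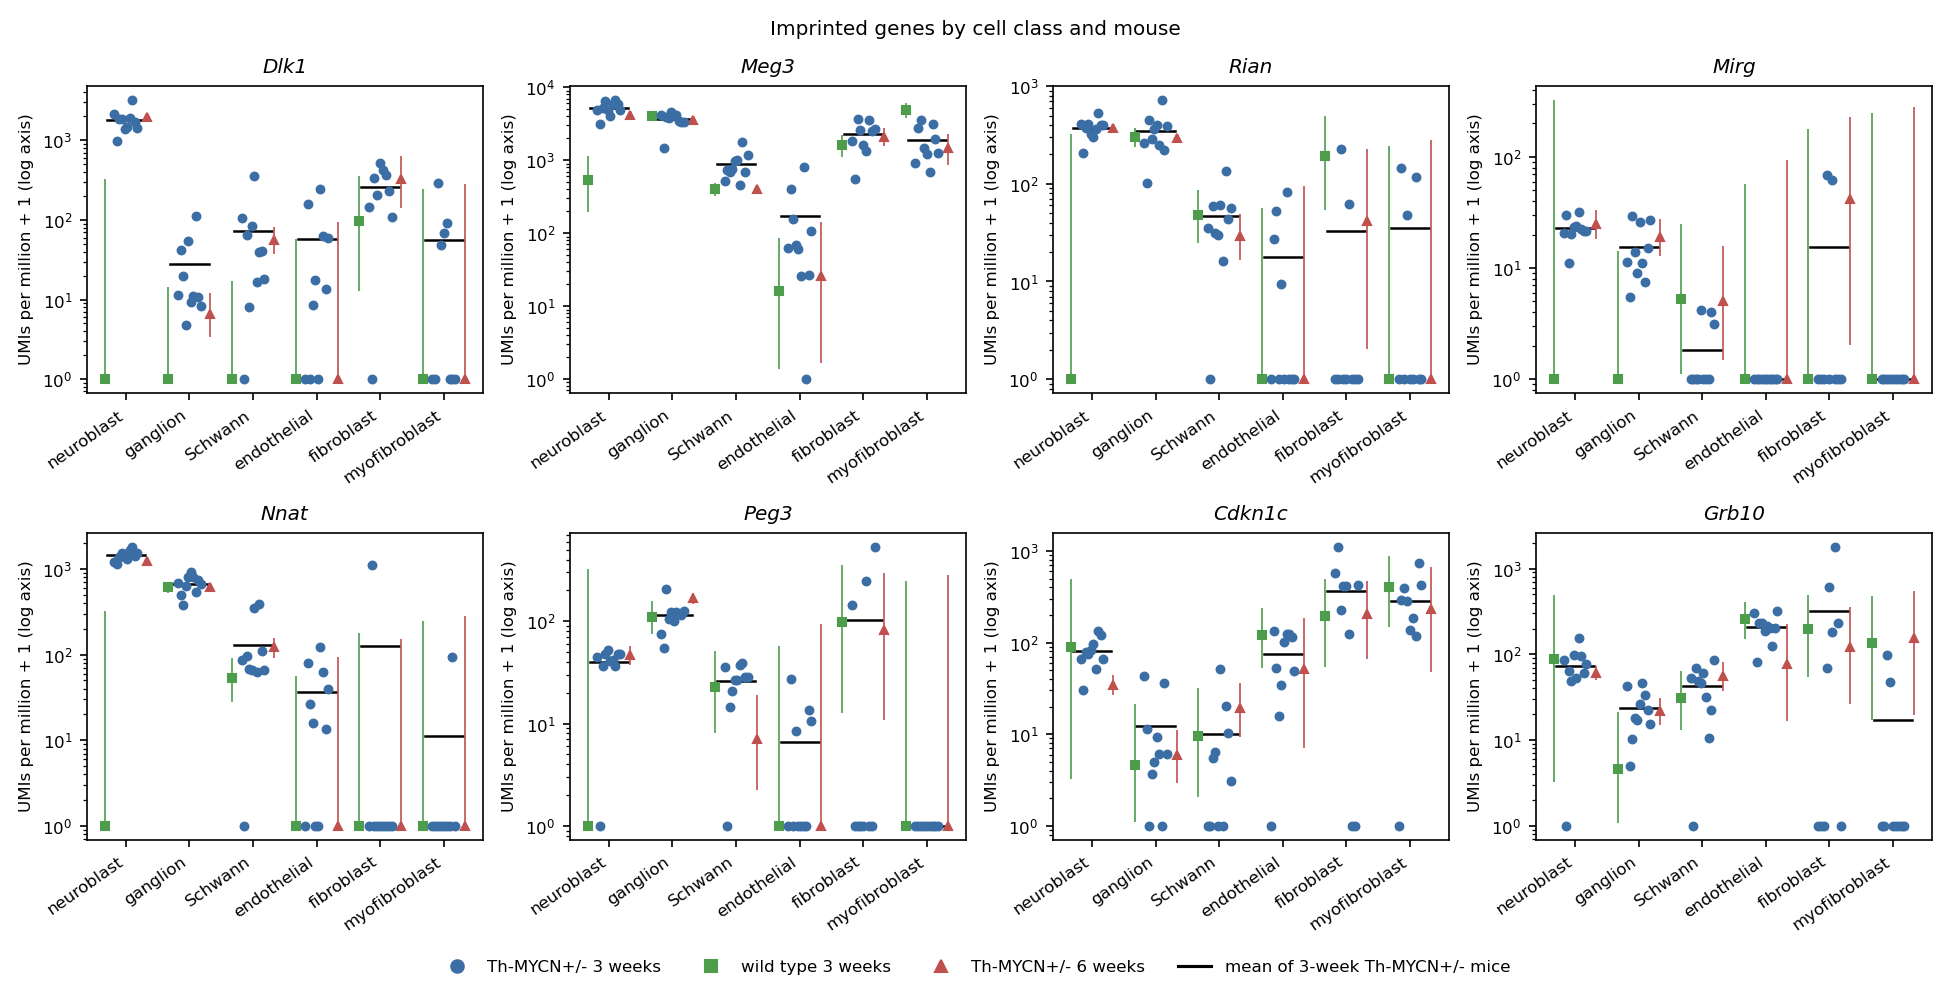
Levels of 8 imprinted genes (CPM plus 1, log axis) in 6 cell classes. Circles are the 3-week Th-MYCN+/- mice with at least 5 cells of the class and the line is their mean, the square is the WT mouse and the triangle the 6-week mouse, both with 95% Poisson intervals. Dlk1 lay between 966 and 3201 CPM in neuroblasts and between 3.82 and 109 CPM in ganglion cells, while the lowest Meg3 value in either class was 1489 CPM, in ganglion cells of mouse #2.

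Meg3, which is next to Dlk1 and expressed from the other parental copy, was high in both neural classes. Neuroblasts ranged from 3134 CPM in mouse #2 over a median of 4989 CPM to 6690 CPM in mouse #8 (mean 5169 ± 1097 CPM). Ganglion cells had 3650 ± 857 CPM, and 9 of the 10 mice fell between 3366 and 4576 CPM, with mouse #2 alone at 1489 CPM. The difference was 0.46 on the log2 scale (SE 0.11, higher in 9 of 10 mice, edgeR adjusted p = 0.000926). Meg3 exceeded the ganglion level by 1.38-fold where Dlk1 exceeded it by 75.5-fold, and the gap between the 2 differences, 5.37 ± 1.16 (SD) on the log2(CPM + 10) scale, had the same sign in 10 of 10 mice (exact sign-flip permutation test, adjusted p = 0.00651 over 5 such contrasts, chosen after the values were known). The WT ganglion cells, without the transgene, had Meg3 at 4001 CPM (interval 3769 to 4244), and 6-week ganglion cells at 3560 CPM, both inside the range of the 3-week mice.

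Outside the neural classes Meg3 was highest on average in fibroblasts and lowest in endothelial cells among the classes of the count test. Macrophages, which were not in that test, had 117 CPM. Their difference from endothelial cells did not pass (exact sign-flip permutation test, adjusted p = 0.146). Schwann cells had 877 ± 384 CPM, 2.50 lower on the log2 scale than neuroblasts (SE 0.24) and 2.04 lower than ganglion cells (SE 0.19), in 10 of 10 mice each (edgeR adjusted p = 6.62e-09 and 2.72e-09). Endothelial cells had 171 ± 254 CPM with a median of 63.9 CPM, 2.82 below Schwann cells (SE 0.44, lower in 9 of 10 mice, adjusted p = 6.22e-06). Fibroblasts, with 2279 ± 1037 CPM, were 1.54 above Schwann cells (SE 0.27, higher in 8 of 9 mice, adjusted p = 2.07e-05), and myofibroblasts, with 1874 ± 1023 CPM, 0.77 above them (SE 0.22, higher in 9 of 9 mice, adjusted p = 0.00361). The fibroblast difference was 0.36 (adjusted p = 0.465) and the myofibroblast difference −0.09 (adjusted p = 0.860) when genes with low counts were kept in the fit. The WT myofibroblasts, with 4863 CPM from 73 UMIs (interval 3812 to 6115), lay above all 9 transgenic mice. WT Schwann cells had 402 CPM (interval 324 to 492) and 6-week Schwann cells 397 CPM (interval 344 to 457), both below all 10 of the 3-week Th-MYCN+/- mice, whose lowest was 461 CPM in mouse #7. Free Meg3 RNA stood at 655 CPM in the WT library, 1417 CPM in the 6-week library and 2786 ± 1334 CPM in the others, and its part in the Schwann levels was not tested.

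Rian and Mirg are the next RNAs of the maternal cluster. Rian was at 370 ± 84.9 CPM in neuroblasts and 344 ± 167 CPM in ganglion cells, and the ranges overlapped (205 to 530 CPM against 102 to 721 CPM). Its neuroblast-ganglion difference of 0.15 (SE 0.15, adjusted p = 0.386) did not pass the test, which does not show that the levels are alike. Against Schwann cells (46.0 CPM) Rian was higher by 2.83 in neuroblasts (SE 0.21, adjusted p = 1.04e-10) and by 2.79 in ganglion cells (SE 0.18, adjusted p = 7.89e-12), in 10 of 10 mice both times. Mirg was read at 21.7 ± 5.71 CPM in neuroblasts and 14.6 ± 8.68 CPM in ganglion cells, a difference of 0.47 (SE 0.28, adjusted p = 0.138) that did not pass. It passed without mouse #10 (0.75, adjusted p = 0.0388) and with log-normalized clustering (0.65, adjusted p = 0.0442). Mirg was at 14.4 ± 28.6 CPM in fibroblasts, from 1 UMI each in mice #4 and #6, and at 0.84 CPM in Schwann cells, where it was too low to be tested. In the fit without a filter on low counts it was higher than in Schwann cells by 3.88 in neuroblasts (SE 0.54) and by 3.43 in ganglion cells (SE 0.62). Endothelial cells, myofibroblasts and macrophages of the 3-week mice held 0 Mirg UMIs.

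Nnat, encoding the small membrane proteolipid neuronatin of differentiating neurons and paternally expressed, graded from neuroblasts over ganglion to Schwann cells. Its levels were 1443 ± 205 CPM (1142 to 1823 CPM), 668 ± 163 CPM (376 to 921 CPM) and 129 ± 131 CPM, with no overlap between neuroblasts and ganglion cells. The differences were 1.07 (SE 0.14) for neuroblasts against ganglion cells, 3.50 (SE 0.29) for neuroblasts against Schwann cells and 2.45 (SE 0.27) for ganglion against Schwann cells, each in 10 of 10 mice (adjusted p = 7.51e-07, 6.81e-10 and 3.59e-08). Ganglion cells of the WT mouse (612 CPM, interval 523 to 711) and of the 6-week mouse (609 CPM, interval 569 to 651) lay within the 3-week range. In fibroblasts Nnat had 0 UMIs in 8 of 9 mice, and its 2 UMIs came from mouse #2.

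Peg3, a paternally expressed zinc finger protein, was lower in neuroblasts than in ganglion cells. Ganglion cells had 114 ± 40.1 CPM (53.2 to 207 CPM) and neuroblasts 38.6 ± 14.5 CPM (0 in mouse #2, otherwise 35.3 to 51.3 CPM), with no overlap. Peg3 was lower in neuroblasts by 1.47 on the log2 scale (SE 0.18, lower in 10 of 10 mice, adjusted p = 3.14e-07), and it was the member of 8 tested that was lower there. Fibroblasts had 102 ± 184 CPM from 10 UMIs (0 in 6 of 9 mice, 533 CPM in mouse #9), and their order against ganglion cells did not pass the test (exact sign-flip permutation, adjusted p = 0.207). Ganglion cells exceeded Schwann cells (24.8 CPM) by 2.02 (SE 0.22, 10 of 10 mice, adjusted p = 2.5e-08), while the neuroblast-Schwann difference of 0.48 (SE 0.22, adjusted p = 0.0572) did not pass, but passed without mouse #2, #7 or #8 (adjusted p = 0.0459, 0.0392 and 0.0375) or with neuroblasts of cluster 1 alone (0.50, adjusted p = 0.0364).

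Cdkn1c, which encodes the cyclin-dependent kinase inhibitor p57 and is maternally expressed, and Grb10, an adaptor that dampens insulin and IGF receptor signalling, had high levels in stromal and vascular cells as well. Cdkn1c was 79.3 ± 30.9 CPM in neuroblasts, 11.3 ± 14.8 CPM in ganglion cells and 9.13 ± 15.9 CPM in Schwann cells, and higher in neuroblasts than in either (3.16, SE 0.37, adjusted p = 1.85e-07, and 3.29, SE 0.38, adjusted p = 1.28e-07; 10 of 10 mice each). Fibroblasts (364 ± 345 CPM, 24 UMIs) and myofibroblasts (284 ± 216 CPM, 30 UMIs) had the highest means, from few molecules. Without mouse #2, whose 5 fibroblasts held 2 Cdkn1c UMIs, the fibroblast mean was 270 CPM, below that of myofibroblasts. The order of fibroblasts, myofibroblasts and neuroblasts did not pass the test. Endothelial cells had 74.0 ± 49.8 CPM. Cdkn1c was too low for the count test of these 3 classes against Schwann cells. With low genes kept in the fit, it was higher in myofibroblasts (4.18, SE 0.46), fibroblasts (3.905, SE 0.49) and endothelial cells (2.58, SE 0.46). The edgeR adjusted p were 8.71e-18, 2.15e-13 and 2.94e-07. Grb10 had its highest mean in fibroblasts, 322 ± 589 CPM from 16 UMIs (362 CPM without mouse #2), with 1800 CPM in mouse #7 and 0 in 4 of 9 mice. Endothelial cells had 209 ± 71.8 CPM (79.5 to 317 CPM), and fibroblasts exceeded them in 3 of 9 mice (exact sign-flip permutation, adjusted p = 0.373). Against Schwann cells, with low genes kept, Grb10 was higher in endothelial cells (1.89, SE 0.32, edgeR adjusted p = 4.85e-08). It was lower in myofibroblasts (−2.17, SE 0.77, edgeR adjusted p = 0.0335) and did not pass in fibroblasts (1.19, SE 0.50, edgeR adjusted p = 0.0935). Endothelial Grb10 lay above neuroblasts (72.9 ± 39.8 CPM) in 10 of 10 mice (log2(CPM + 10) difference 1.56 ± 0.84 SD, exact sign-flip permutation test, adjusted p = 0.026). Neuroblasts exceeded ganglion cells (22.7 CPM) by 1.77 (SE 0.21, 9 of 10 mice, adjusted p = 2.63e-07), and the difference from Schwann cells (41.9 CPM) did not pass the test (0.43, SE 0.27, adjusted p = 0.158). With median-ratio scaling in place of TMM, which moved the median difference of the 40 tested members and listed genes by 0.21, the differences of Grb10 (0.64, adjusted p = 0.0460) and Peg3 (0.69, adjusted p = 0.00575) passed.

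H19 and Igf2 were close to silent in these counts. For Igf2 the part of its overlap with Gm49394 in this low count was not tested. All 11958 cells together held 18 H19 UMIs and 4 Igf2 UMIs, against 123088 UMIs of Meg3 and 31298 of Dlk1. For H19, 9 UMIs came from fibroblasts of the 9 mice of 3 weeks with at least 5 such cells (3 each in mice #3, #6 and #8 and 0 in the other 6, 135 ± 242 CPM), 1 from the 4 fibroblasts of mouse #10 and 2 from the WT fibroblasts. Neuroblasts held 5 (2 each in mice #1 and #8, 1 in the 6-week mouse) and an unnamed cell of mouse #8 held 1. Ganglion, Schwann, endothelial, myofibroblast and macrophage cells of all 12 mice held 0. Igf2 was at 0 UMIs in neuroblasts, ganglion cells and Schwann cells of the 12 mice and had 2 UMIs in fibroblasts of mouse #5, 1 in myofibroblasts of mouse #4 and 1 in endothelial cells of mouse #10. Both genes were too low for the count test in every comparison. With low genes kept, H19 was higher in fibroblasts than in Schwann cells (5.23, SE 1.03, adjusted p = 1.5e-05), an estimate against a class at 0 UMIs that depends on the prior count and gives no fold.

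Of the 10 members, 8 could be tested between neuroblasts and ganglion cells, of which 5 were higher and 1 lower in neuroblasts, where 68.1% of the 7193 genes tested passed (34.2% higher and 33.9% lower). Between neuroblasts and Schwann cells 5 of 7 were higher (68.5% of 5546 genes passed, 37.7% as higher and 30.8% as lower), and between ganglion and Schwann cells 4 of 4 were higher (69.8% of 3139 genes passed, 38.1% as higher and 31.7% as lower). Meg3 was the only member abundant enough to be tested when endothelial cells, fibroblasts and myofibroblasts were each compared with Schwann cells. It was lower in endothelial cells, where 53.6% of 1785 genes passed (27.9% higher, 25.7% lower). It was higher in fibroblasts, where 55.6% of 187 passed (24.6% higher, 31% lower), and in myofibroblasts, where 41.2% of 1040 passed (12.9% higher, 28.4% lower). The members tested are too few to set these shares against those of all genes. Their median difference was 0.77 between neuroblasts and ganglion cells, against 0.03 over all genes, 2.83 against 0.12 between neuroblasts and Schwann cells, and 2.25 against 0.10 between ganglion and Schwann cells. Only members that passed the filter on low counts enter these counts and medians, so they do not describe the members left out. With low genes kept, Dlk1 (−1.30, SE 0.30) and Grb10 (−1.13, SE 0.30) were lower in ganglion than in Schwann cells (edgeR adjusted p = 8.03e-05 and 0.000575). In that fit Mirg was higher (3.43, SE 0.62), and Cdkn1c did not pass (0.44, SE 0.48).

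**Figure D2:**
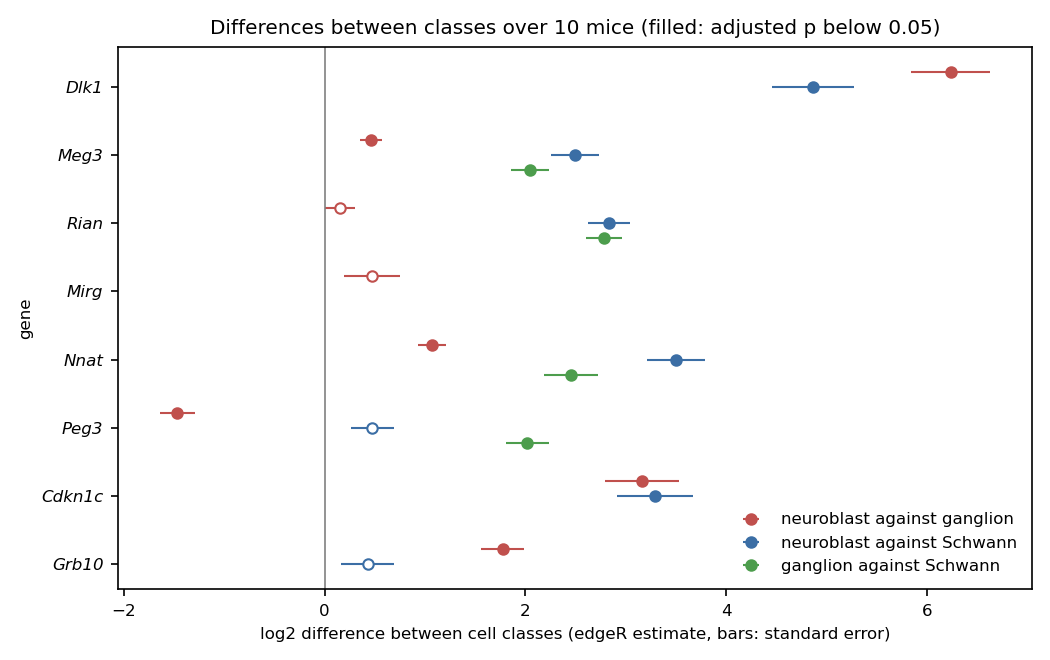
Difference between cell classes on the log2 scale (edgeR estimate; bars, standard error) for the 8 members tested, over the 10 Th-MYCN+/- mice of 3 weeks. Filled circles passed an adjusted p of 0.05. Dlk1 reached 6.24 between neuroblasts and ganglion cells, where Peg3, at −1.47, was below 0.

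Other imprinted genes did not follow 1 direction, and neither did the tested genes as a whole. Over all genes 34.2% were higher and 33.9% lower in neuroblasts than in ganglion cells. The shares were 37.7% and 30.8% for neuroblasts against Schwann cells, and 38.1% and 31.7% for ganglion against Schwann cells. Whether the list differed from these shares was not tested. Of a list of 49, 46 were in the table. Between neuroblasts and ganglion cells 23 could be tested, of which 6 were higher in neuroblasts and 8 lower, with a median of −0.02. The largest differences belonged to Peg10, a retrotransposon-derived gene (2.14, SE 0.32, adjusted p = 6.36e-06), Nap1l5 (−1.90, SE 0.16, adjusted p = 1.15e-09; 219 against 820 CPM, lower in 10 of 10 mice) and Zdbf2 (1.43, SE 0.29, adjusted p = 0.000202). Against Schwann cells, 9 of 19 were higher and 3 lower in neuroblasts, led by Ddc, an enzyme of catecholamine synthesis (3.67, SE 0.23), Sgce, a sarcoglycan (−3.08, SE 0.22), and Nap1l5 (2.79, SE 0.21), and 7 of 13 were higher and 3 lower in ganglion cells. In ganglion cells the order was Nap1l5 (4.65, SE 0.21), Ddc (4.24, SE 0.25) and Sgce (−3.65, SE 0.27). Endothelial cells against Schwann cells gave 1 higher and 3 lower of 6, with Sgce (−2.25, SE 0.29), Snrpn (−1.95, SE 0.35) and Ndn (−1.27, SE 0.29) in front. In myofibroblasts Sgce (−1.42, SE 0.40) was the 1 of 4 that passed, and in fibroblasts 0 of 1 did (Gnas, −0.13, SE 0.23, unadjusted p = 0.577 by edgeR, named after its value was seen).

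Genes known to act with the members, a list of 26 (IGF receptors and binding proteins, Notch receptors and targets, cyclins and kinases bound by p57, and keepers of imprints), were counted in the same way. Between neuroblasts and ganglion cells 9 of 12 were higher and 2 lower, where 34.2% of all genes were higher and 33.9% lower. The shares over all genes in the other comparisons are those given above. No difference from them was tested for this list. Ccna2, a cyclin of S and G2 phase (6.00, SE 0.28), Cdk4, a kinase of G1 (3.19, SE 0.13), and Trim28, a co-repressor that protects imprints (2.58, SE 0.21; 228 against 36.2 CPM, adjusted p = 1.31e-09), led. Cdk4 and Ccnd1, another gene of this list, had themselves served to name the neuroblasts. Against Schwann cells 8 of 14 were higher and 5 lower in neuroblasts, with the Notch target Hes1 (−8.47, SE 0.34), the receptor Notch1 (−6.50, SE 0.37) and Igfbp4 (−6.25, SE 0.30) lowest. Ganglion cells were lower than Schwann cells for 4 of 4, Hes1 (−4.99, SE 0.24), Cdk4 (−1.23, SE 0.17) and Cdkn1a (−0.80, SE 0.26) among them. Of the Notch family, Notch3 was higher in myofibroblasts (8.14, SE 0.46; 735 against 1.36 CPM), the 1 of 5 that passed there, and in endothelial cells Ccnd1 was lower (−1.07, SE 0.25), the 1 of 6 that passed.

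Neuroblasts comprised 3 clusters, led by cell-cycle genes in cluster 1 (1724 cells), by Rem2, Pnmt and Alk in cluster 4 (1065 cells) and by Cartpt in cluster 10 (336 cells). Pnmt, the enzyme that makes adrenaline, is a chromaffin marker, so cluster 4 carried no neuroblast marker among its 10 leading genes, and the clusters are compared by number. In fits chosen after the data were seen, without cluster 4 the difference between neuroblasts and ganglion cells was 6.33 for Dlk1, 0.41 for Meg3, 0.99 for Nnat and −1.32 for Peg3, and 5 members were higher and 1 lower as before. With cluster 1 alone these differences were 6.46, 0.33, 0.80 and −1.29, and all of them passed (edgeR adjusted p = 3.97e-11, 0.0449, 0.000595 and 4.46e-06). Dlk1 did not pass the test between clusters 4 and 1 (2042 ± 649 CPM against 1894 ± 532 CPM over 9 mice; log2(CPM + 10) difference 0.09 ± 0.18 SD, adjusted p = 0.381) and was lower in cluster 10, 791 ± 443 CPM against 1885 ± 503 CPM, in 10 of 10 mice (exact sign-flip permutation test, adjusted p = 0.013 over 20 pairs). Meg3 was higher in cluster 4 (6794 ± 1148 CPM against 4757 ± 797 CPM, 9 of 9 mice, adjusted p = 0.013) and not separable between clusters 10 and 1 (4505 against 4570 CPM, higher in 5 of 10 mice). Nnat was higher in both (1867 ± 414 CPM in cluster 4 and 1783 ± 352 CPM in cluster 10), in 9 of 9 and 10 of 10 mice with adjusted p = 0.013 by the same exact test. Rian was also higher in cluster 4 (453 against 362 CPM, 9 of 9 mice, adjusted p = 0.013, exact test), and Grb10 was lower in cluster 10 (29.3 against 75.1 CPM, lower in 9 of 10 mice, adjusted p = 0.013, exact test). These 6 pairs of 20 passed, and with 9 or 10 mice the smallest p before adjustment is 0.00391 or 0.00195.

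In the 6-week mouse the clusters did not all resemble those of 3 weeks. Dlk1 was 1653.5 CPM in cluster 1 and 2499 CPM in cluster 4, inside the ranges of the 3-week mice (1428.5 to 3170.5 and 1431 to 3488 CPM), and 2254 CPM in cluster 10 (interval 2013 to 2517; 30 cells), above all 10 mice of 3 weeks, whose highest was 1415 CPM. Nnat in cluster 10 was 1141.5 CPM (interval 971 to 1333), below all 10, whose lowest was 1393 CPM, and Grb10 there was 78.5 CPM (11 UMIs), above all 10. Human MYCN in that cluster was 642 CPM in the 6-week mouse against 216 ± 152 CPM. Cdkn1c was 32.4 CPM in cluster 1 (below 9 of 10 mice) and 37.9 CPM in cluster 4 (below 9 of 9, whose lowest was 41.3 CPM and whose median was 80.6 CPM). Endothelial Grb10 was 76.0 CPM from 3 UMIs (interval 15.7 to 222), with all 10 younger mice above it. Meg3 was 3207 CPM in cluster 1 (9 of 10 mice above), 6055 CPM in cluster 4 and 5408 CPM in cluster 10. With 1 mouse no test was possible, and age, tumor and the mouse itself cannot be told apart.

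**Figure D3:**
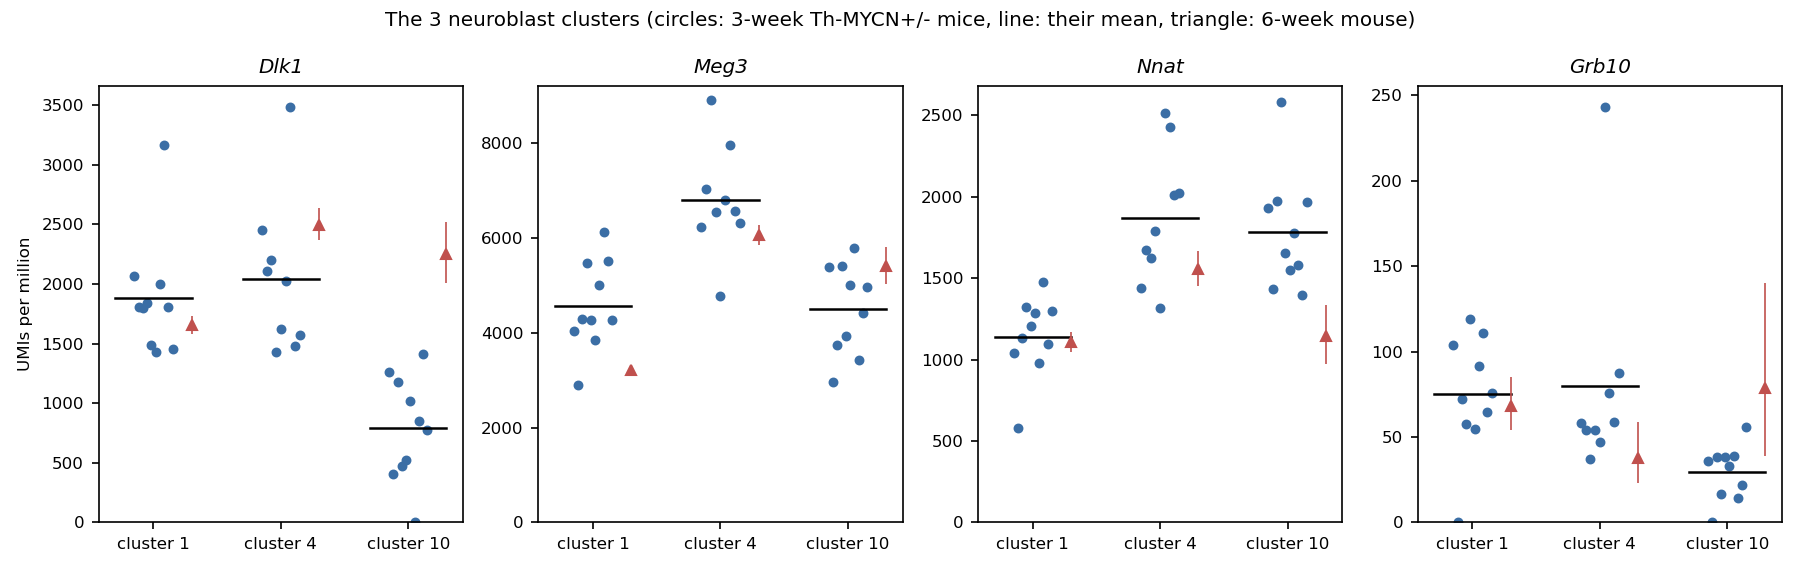
Levels (CPM, axes from 0) of Dlk1, Meg3, Nnat and Grb10 in the neuroblast clusters. Circles are 3-week Th-MYCN+/- mice, the line their mean and the triangle the 6-week mouse with its 95% Poisson interval. Dlk1 in cluster 10 was 791 CPM on average at 3 weeks and 2254 CPM in the 6-week mouse.

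Neuroblasts were then split within each mouse by their share of UMIs from 94 cell-cycle genes, after thinning to 1000 UMIs, and the cycle-high and cycle-low groups (equal shares at the top and bottom of this order) were compared in the 9 mice with at least 5 cells each. These groups came from different clusters. Of the cycle-high cells of the 10 mice 93.85% lay in cluster 1, and of the cycle-low cells 82% lay in cluster 4 and 7.63% in cluster 1. The split thus largely set parts of clusters 1 and 4 against each other. Of 7 members tested, 3 were lower and 1 higher in the cycle-high group, where 33% of 5379 genes passed (16.7% higher and 16.3% lower). Meg3 stood at 7021 ± 1314 CPM in the cycle-low and 4525 ± 797 CPM in the cycle-high group, lower in 9 of 9 mice (−0.60, SE 0.07, adjusted p = 7.12e-06). Nnat was lower in the cycle-high group, 1171 ± 157 against 2013.5 ± 492.8 CPM, also in 9 of 9 mice (−0.72, SE 0.11, adjusted p = 0.000124). Grb10 was higher there, 104 ± 69.3 against 49.7 ± 19.5 CPM, in 9 of 9 mice (0.97, SE 0.17, adjusted p = 0.000287), with mouse #7 highest at 277 CPM. Between the whole clusters Grb10 was 79.63 ± 63.15 CPM in cluster 4 and 83.41 ± 23.92 CPM in cluster 1. That difference did not pass (9 mice, exact sign-flip permutation test, adjusted p = 0.564). Rian was lower by 0.27 (SE 0.10, 8 of 9 mice, adjusted p = 0.0472), which was lost without any of mice #1, #3, #4, #6, #7, #8 or #9 (adjusted p = 0.0591 to 0.127), and also with DESeq2 (adjusted p = 0.0759) or median-ratio scaling (adjusted p = 0.0510).

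Within cluster 1 alone, split again in the same way, the differences of these members did not pass: Meg3 −0.20 (SE 0.09, adjusted p = 0.172), Nnat −0.22 (SE 0.09, adjusted p = 0.133), Grb10 0.08 (SE 0.23, adjusted p = 0.872) and Rian 0.02 (SE 0.14, adjusted p = 0.947). Without cluster 4, Meg3 (−0.20, SE 0.06, adjusted p = 0.0390) and Nnat (−0.32, SE 0.08, adjusted p = 0.0111) still passed, while Grb10 was −0.15 (adjusted p = 0.663). The number of genes called went from 1773 to 611 without cluster 4 and to 479 within cluster 1. The cell cycle and the identity of the clusters cannot be told apart in the split of all neuroblasts.

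Dlk1 did not pass the test with the cycle, and in the split of all neuroblasts its difference parted from that of Meg3. It stood at 1776 ± 487 CPM in the cycle-high and 1826 ± 822 CPM in the cycle-low group, higher in 4 and lower in 5 of 9 mice (0.07, SE 0.12, adjusted p = 0.706). The gap between the Dlk1 and the Meg3 differences was 0.66 ± 0.39 (SD) with the same sign in 9 of 9 mice, and that between Meg3 and Rian −0.33 ± 0.22 in 9 of 9 mice (exact sign-flip permutation tests, adjusted p = 0.00651 each). Within cluster 1 alone Dlk1 and Meg3 did not part in this way. The differences there were −0.196 for Dlk1 (SE 0.11, edgeR adjusted p = 0.285) and −0.20 for Meg3 (SE 0.09, edgeR adjusted p = 0.172). Their gap was not tested there. Cdkn1c, which codes for a cell-cycle inhibitor, did not pass the test (96.9 CPM in the cycle-high against 80.1 CPM in the cycle-low group, higher in 7 of 9 mice, 0.41, SE 0.20, adjusted p = 0.125). It passed as higher without mouse #8 (0.61, adjusted p = 0.0205), without cluster 4 (0.77, adjusted p = 0.0268) and within cluster 1 (0.71, adjusted p = 0.0337). Among the other imprinted genes 2 of 20 were higher and 7 lower, with Nap1l5 (−1.05, SE 0.13), H13 (−0.73, SE 0.16) and Blcap, which overlaps Nnat (−0.67, SE 0.20), in front. Over all genes 16.7% were higher and 16.3% lower, and neither list was tested against these shares. Of the partners 8 of 12 were higher, led by Ccna2 (5.12, SE 0.32), Cdkn1a (1.75, SE 0.31) and Dnmt1 (1.39, SE 0.24). Dnmt1, the maintenance methyltransferase, stood at 47.2 CPM in the cycle-high against 18.5 CPM in the cycle-low group. Ccna2 is a gene of the cycle itself. Ctcf, also on the partner list, was among the cell-cycle genes that defined the split. Any difference of Ctcf between these groups is thus not independent of the split. The cells of the cycle-high group were somewhat deeper (medians of 3447 to 6683 against 3201 to 5410 UMIs in the 9 mice), and the Meg3 difference was −0.66 (SE 0.07) with cells thinned to 2000 UMIs for the split.

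**Figure D4:**
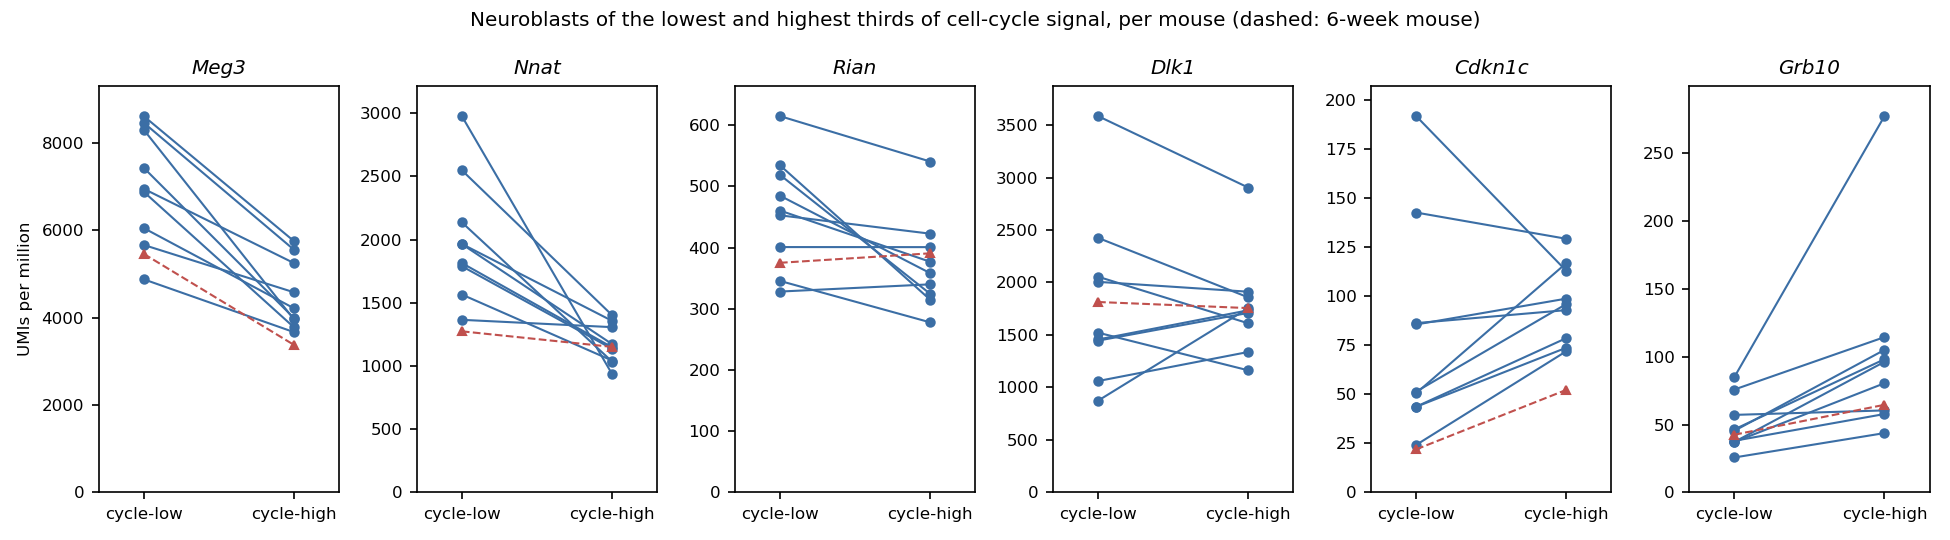
Levels (CPM, axes from 0) of 6 members in the groups of neuroblasts with the least and the most cell-cycle signal. Each line joins the groups of 1 mouse: 9 Th-MYCN+/- mice of 3 weeks (solid) and the 6-week mouse (dashed). Meg3 and Nnat were lower and Grb10 higher in the cycle-high group in 9 of 9 mice, while the Dlk1 lines cross. Most cycle-low cells (82%) were of cluster 4 and most cycle-high cells (93.85%) of cluster 1.

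Across mice, the neuroblast levels of the domain were compared over 10 mice. Over the 10 Th-MYCN+/- mice of 3 weeks, on the log2(CPM + 10) scale, Dlk1 correlated with Meg3 (Pearson r = 0.805, permutation p = 0.0069, adjusted over 3 relations 0.0104; Spearman rho = 0.709, p = 0.0272, adjusted 0.0408) and Meg3 with Rian (r = 0.896, permutation p = 0.00075, adjusted 0.00225; rho = 0.733, p = 0.0205, adjusted 0.0408). Without mice #2 and #8, which lay furthest from the median, r was 0.459 for Dlk1 with Meg3 (permutation p = 0.252) and 0.652 for Meg3 with Rian (p = 0.0868). Neither passed over the 8 mice left, whose range is narrower, and mouse #2 had 43 neuroblasts. With any single mouse left out, the relation of Meg3 with Rian kept r between 0.759 and 0.928 and passed. Dlk1 against human MYCN gave r = 0.637 (permutation p = 0.0474, adjusted 0.0474) and rho = 0.491 (p = 0.156, adjusted 0.156), and r = 0.288 (permutation p = 0.512) without mice #2 and #10. Leaving out mouse #2 alone took r to 0.650 for Dlk1 with Meg3 (adjusted p = 0.0794, permutation) and to 0.447 for Dlk1 with human MYCN (adjusted p = 0.227, permutation). With neuroblasts of cluster 1 alone r was 0.513 for Dlk1 with Meg3, 0.533 for Meg3 with Rian and 0.337 for Dlk1 with human MYCN, and none passed (permutation, adjusted p = 0.201, 0.201 and 0.346).

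**Figure D5:**
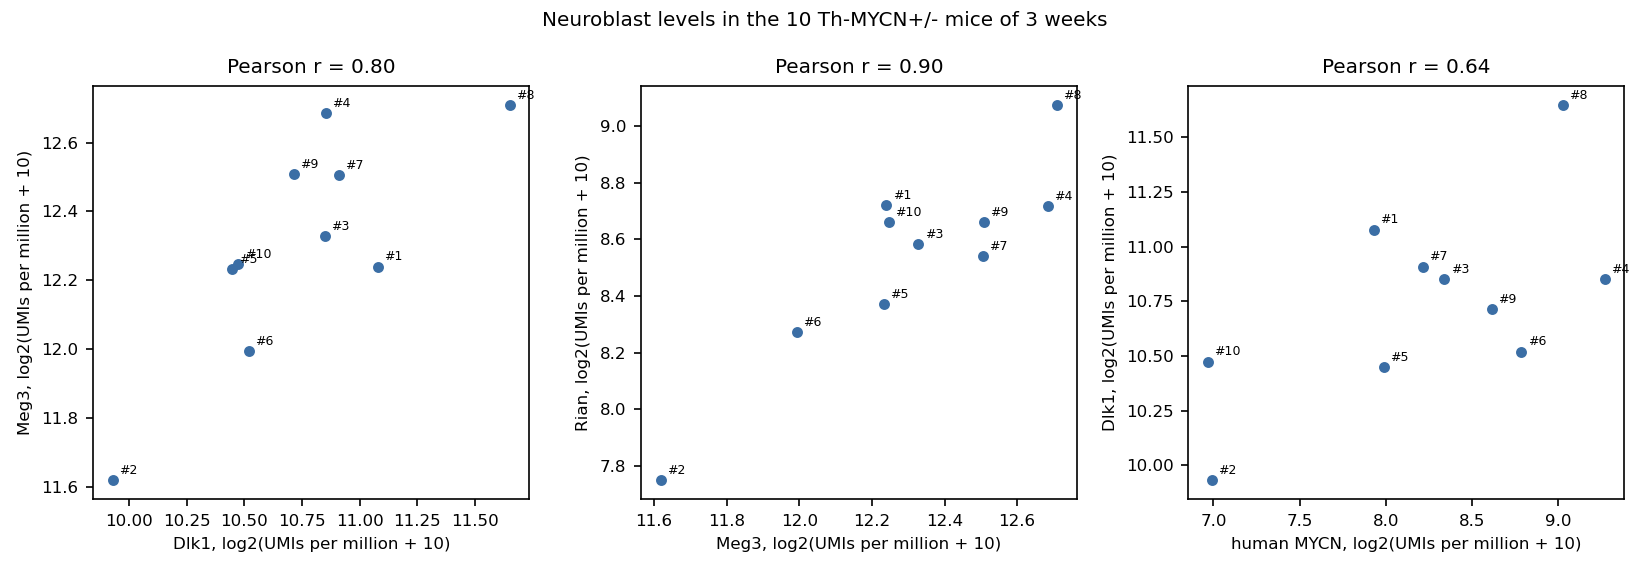
Neuroblast levels in the 10 Th-MYCN+/- mice of 3 weeks, as log2(CPM + 10), each point 1 mouse. Without the 2 mice furthest from the median on the horizontal axis r fell from 0.805 to 0.459, from 0.896 to 0.652 and from 0.637 to 0.288.

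The genes with the most similar pattern were sought over 67 sums per mouse and class of at least 20000 UMIs, among 12727 genes. These sums share mice and depth, and the r values are descriptions. For Dlk1 they were Igfbpl1 (r = 0.937), Agtr2 (0.923) and Rrm2 (0.921), a subunit of ribonucleotide reductase. For Meg3 they were Ndn (0.962), another imprinted gene, Tuba1a (0.929) and Podxl2 (0.918). For Nnat they were Uchl1 (0.946), a deubiquitinase of neurons, Eef1a2 (0.942) and Rtn1 (0.941). For H19 the highest r, 0.984, was shared by Dpp4, Gm14412 and Tnfsf15 and rests on 1 sum, the WT fibroblasts, and Igf2 was too low for a match.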

How the data were processed

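Superior mesenteric ganglia of 12 mice were profiled by droplet single-cell RNA sequencing (Chromium 3′ kit, version 1). The authors aligned the reads with Cell Ranger to mm10 with the human MYCN sequence added and deposited raw UMI counts per gene and barcode (matrix header version 3.0.2). The annotation release and strand setting are not given in the sources used here. Cells were called from these counts with an EmptyDrops-type test (free RNA from barcodes of at most 100 UMIs, 10000 simulations, FDR 0.01), keeping barcodes with at least 200 genes, at most 10% mitochondrial and at most 60% ribosomal UMIs, 11958 of 16091. Scrublet marked 52 cells (0.435%), too few to have worked, so no doublets were removed, and removal of the highest 5% of scores was an alternative. Seurat 5.3.0 clustered the cells (SCTransform, 2000 genes without the imprinted genes and the transgene, 30 components, resolution 0.5). A cluster was named when at least 50% and 3 of a marker list were 1.5-fold higher and in 10% of its cells, a limit set after the clusters were seen.

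UMIs were summed per mouse and class (at least 5 cells) and tested over the 10 Th-MYCN+/- mice of 3 weeks with edgeR 4.0.16 (quasi-likelihood test, TMM, its filter on low counts, mouse as block, Benjamini-Hochberg FDR 0.05). The block is the mouse because classes come from the same library. The deviations of the 2 sums of a mouse correlated at a median of 0.15 (−0.0099 to 0.48). The p-values test the class difference within mice against its variation from mouse to mouse, which for sums of few molecules includes counting error. CPM are UMIs per 1000000 UMIs of the class. Poisson intervals (95%) and limits of 3 UMIs cover counting error only. On simulated counts the test between neuroblasts and ganglion cells recovered 125 of 129 changed genes with 2 false calls. The members and lists were chosen with earlier results of these data known. Named from each list of other imprinted and partner genes were the 3 called genes with the largest difference in each comparison, and for the pattern search the 3 most similar genes. Promoter sequences are from RefSeq and positions from GENCODE vM21. Alternatives were DESeq2 1.42.0, median-ratio scaling, no low-count filter, no block, leaving out each mouse, neuroblasts without cluster 4 or of cluster 1 only and Schwann levels without mouse #6 (these chosen after seeing the data), other cell filters, resolution and normalization, imprinted genes kept in clustering, and other thinning depths and pseudocounts.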

Additional observations from a re-analysis of the deposited data

Results flagged for a closer look

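Among 31 sets of 9 or 10 mice, 8 held a mouse far from the others by Dixon's test, where chance gives about 1 in 20. Dlk1 was 3201 CPM in neuroblasts of mouse #8 (next 2151 CPM, 438 cells) and 109.5 CPM in its ganglion cells (17 UMIs, next 53.6 CPM), and 356.6 CPM in Schwann cells of mouse #6 (42 UMIs, next 103 CPM). Meg3 was 1489 CPM in ganglion cells of mouse #2 (next 3366 CPM), the mouse with 1470 ganglion cells, and 815.8 CPM in endothelial cells of mouse #7 (20 UMIs in 18 cells, next 397.5 CPM). Rian was 134.3 CPM in Schwann cells of mouse #8 (14 UMIs, next 59.4 CPM). Peg3 was 0 CPM in the 43 neuroblasts of mouse #2 (next 35.3 CPM) and 206.5 CPM in ganglion cells of mouse #3 (22 UMIs, next 124.5 CPM).

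The WT mouse and the older Th-MYCN+/- mouse were set against all Th-MYCN+/- mice of 3 weeks, in 60 contrasts for both together. In 3 of these the sign was opposite, each time in the WT mouse. The neuroblast minus Schwann difference of the WT mouse was −47.51 CPM for Rian and −51.83 CPM for Nnat. Its neuroblast minus ganglion difference was −611.9 CPM for Nnat. The differences of −47.51 and −51.83 CPM lie inside the 264 CPM that 3 UMIs would give in the WT neuroblast clusters, so that their sign is not determined. These differences were not tested, and the 30 WT cells in neuroblast clusters, with 11367 UMIs in all, held 0 UMIs of either gene.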

How the results depend on the processing

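Over 29 member differences and 643 alternatives, 597 kept direction and side of the threshold, 19 lost the call, 17 gained it and 10 changed sign. The sign changes were Meg3 between myofibroblasts and Schwann cells (−0.091 with low genes kept, −0.69 with cells of at least 1000 UMIs), Dlk1 with the cycle (−0.015 with log-normalized clustering, −0.035 without the highest Scrublet scores, −0.057 to 0.125 with 1 mouse left out, below 0 without mouse #10) and Peg3 with the cycle (0.19 with log-normalized clustering). With neuroblasts without cluster 4, chosen after seeing the data, the cycle differences of Dlk1 (−0.028) and Grb10 (−0.15) changed sign, 611 genes were called with the cycle and Dlk1 with human MYCN had r = 0.546. With cluster 1 only, also chosen after seeing the data, Dlk1 (−0.196) and Rian (0.023) changed sign with the cycle, where 479 genes and 0 members as lower were called, Nnat stood at 1141 CPM in neuroblasts, and r was 0.513 for Dlk1 with Meg3, 0.533 for Meg3 with Rian and 0.337 for Dlk1 with human MYCN. With low genes kept, the genes called were 7842, 7818, 6862, 3506, 2213 and 2685 in the comparisons of neuroblasts with ganglion and Schwann cells and of ganglion, endothelial, fibroblast and myofibroblast cells with Schwann cells. More members could then be tested: 8 were higher in neuroblasts than in Schwann cells, 2 in endothelial cells and 2 in fibroblasts, and 2 were lower in ganglion cells, 4 in endothelial cells, 1 in fibroblasts and 3 in myofibroblasts. With at least 10 cells per sum, 1 member was higher in endothelial cells and 317 genes were called in fibroblasts. Under the stricter cell filter (500 genes, 5% mitochondrial UMIs) the genes called were 186 in fibroblasts and 253 in myofibroblasts, with 0 members higher in the latter. With cells of at least 1000 UMIs, 0 members were higher in fibroblasts and in myofibroblasts, where 195 genes were called, and the relation of Dlk1 with human MYCN had r = 0.526 (permutation, adjusted p = 0.119), or 0.534 with log-normalized clustering (adjusted p = 0.110, permutation). Thinned to 1000 UMIs, 67.2% of neuroblasts held Dlk1 and 95.1% Meg3, as means over mice. The mean over mice for Dlk1 at 500 UMIs was 48.9%. Pooled over mice, the Dlk1 share was 73.5% of 2646 neuroblasts at 1000 UMIs and 53.5% of 2721 at 500 UMIs. Without the replicate block, 2 of 29 member calls changed: Mirg between neuroblasts and ganglion cells passed (0.60, adjusted p = 0.0499) and Rian with the cycle did not (−0.27, adjusted p = 0.126). No other member call changed without the block. Leaving out 1 mouse at a time gave 82 to 339 genes called in fibroblasts (339 without mouse #2), 0 to 1 members higher in endothelial cells (1 without mouse #2), 0 to 1 lower in ganglion than in Schwann cells (1 without mouse #7), 1 to 2 higher with the cycle (2 without mouse #8), and r of 0.650 to 0.855 for Dlk1 with Meg3, 0.447 to 0.716 for Dlk1 with human MYCN (past the threshold without mouse #1, #4 or #6) and 0.759 to 0.928 for Meg3 with Rian. Median-ratio scaling moved the median difference of the tested members and listed genes by 0.21 between neuroblasts and Schwann cells, 0.145 between ganglion and Schwann cells, −0.115 in endothelial cells and −0.134 in myofibroblasts. The causes were not tested. Fibroblasts and myofibroblasts held few molecules, which limits their values.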
